A study of Mus musculus with 6 samples.

Results

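A panel of 40 cell cycle genes was followed through mouse pancreatic tumours by single-cell RNA sequencing. The members were set by a list of symbols and matched by the gene symbol of the count matrices, where all 40 were found among 32285 genes. Of them, 24 belong to G2 phase and mitosis (G2/M members) and 16 to the entry into and passage through DNA synthesis (G1/S members). The tumours grew in the pancreas of C57BL/6 mice from injected KPC cells, a mouse pancreatic ductal adenocarcinoma line derived from a Pdx1-Cre model. The cells carried either an empty vector (KPC-OE-Vector) or a construct for overexpression of MLKL (KPC-OE-MLKL), the pore-forming protein that executes necroptosis. The mice were wild type and 6 to 8 weeks old, and tumours were collected 4 weeks after injection, dissociated with enzymes, depleted of red blood cells and loaded for droplet sequencing of transcript 3′ ends. Both arms therefore share the KPC background and the host, and each arm rests on 1 engineered line.

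The labels list 3 OE-Vector and 3 OE-MLKL samples. Count matrices were analysed for 4 of them, OE-Vector 1 and OE-MLKL 1, 2 and 3, and the other OE-Vector samples were not analysed here. Where 4 values stand in a row below, they are OE-Vector 1 followed by OE-MLKL 1, 2 and 3. A comparison of the arms is thus 1 tumour against 3, for which an exact permutation test cannot give a p under 0.25.

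Cells copy their DNA in S phase and divide it in mitosis, and most genes of the panel are transcribed only in cells that pass through these phases. The E2F factors switch on the G1/S genes, among them the subunits of the replicative helicase, the suppliers of nucleotides and cyclin E. Later the B-MYB and FOXM1 complexes switch on the G2/M genes, among them cyclin B with its kinase, the spindle motors, the kinetochore proteins and the ubiquitin enzymes that end mitosis. In a tumour, the same genes mark dividing cancer cells and also expanding T cells and locally dividing macrophages, whereas mature neutrophils have left the cycle before they enter tissue.

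The panel's phases could also be read in promoter sequence. Of the 40 members, 34 had a window from 250 bases before to 50 bases after the start of the gene in RefSeq (build GRCm38.p6). The windows were searched on both strands for the letters of the cell cycle genes homology region (CHR; TTTGAA or TTTAAA), for the CCAAT box bound by NF-Y (CCAAT) and for E2F sites (TTCCCGC or TTGGCGC or TTCGCGC or TTGCCGC). A CHR was found in 19 of 21 G2/M windows (90.5%) and in 5 of 13 G1/S windows (38.5%), against 27.8% of the windows of all 27025 genes. A CCAAT box was found in 19 of 21 G2/M windows (90.5%), in 9 of 13 G1/S windows (69.2%) and in 37.9% of all windows. E2F letters showed the reverse order, with 4 of 21 G2/M windows (19.0%), 8 of 13 G1/S windows (61.5%) and 9.69% of all windows. A match is a stretch of letters and not a measured binding site. The windows below belong to 4 members that the results return to: Ube2c (chr2:164769679-164769978, plus strand), Kif23 (chr9:61946750-61947049, minus strand), Top2a (chr11:99024140-99024439, minus strand) and Mcm5 (chr8:75109259-75109558, plus strand). They are written 5′ to 3′ on the strand of the gene, with CHR and CCAAT matches of either strand in capitals in the first 3 and E2F matches in capitals in Mcm5, where overlapping matches run together.

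Ube2c: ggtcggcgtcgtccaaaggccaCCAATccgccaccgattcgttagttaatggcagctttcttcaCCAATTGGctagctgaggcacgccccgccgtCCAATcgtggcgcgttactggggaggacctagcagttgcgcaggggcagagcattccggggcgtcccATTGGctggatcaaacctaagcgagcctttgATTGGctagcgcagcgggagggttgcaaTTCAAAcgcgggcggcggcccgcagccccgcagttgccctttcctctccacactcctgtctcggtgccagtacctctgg
Kif23: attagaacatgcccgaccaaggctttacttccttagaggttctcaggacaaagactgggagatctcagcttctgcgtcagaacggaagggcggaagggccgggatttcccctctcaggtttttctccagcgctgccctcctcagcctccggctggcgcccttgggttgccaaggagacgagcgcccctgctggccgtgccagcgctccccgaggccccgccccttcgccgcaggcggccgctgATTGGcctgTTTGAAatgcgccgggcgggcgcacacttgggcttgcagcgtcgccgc
Top2a: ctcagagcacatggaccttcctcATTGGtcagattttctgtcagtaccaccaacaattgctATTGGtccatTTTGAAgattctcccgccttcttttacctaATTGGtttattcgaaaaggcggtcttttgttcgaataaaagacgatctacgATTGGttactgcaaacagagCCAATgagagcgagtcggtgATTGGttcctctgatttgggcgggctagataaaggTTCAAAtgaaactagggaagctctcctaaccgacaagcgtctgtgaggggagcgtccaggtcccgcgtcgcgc
Mcm5: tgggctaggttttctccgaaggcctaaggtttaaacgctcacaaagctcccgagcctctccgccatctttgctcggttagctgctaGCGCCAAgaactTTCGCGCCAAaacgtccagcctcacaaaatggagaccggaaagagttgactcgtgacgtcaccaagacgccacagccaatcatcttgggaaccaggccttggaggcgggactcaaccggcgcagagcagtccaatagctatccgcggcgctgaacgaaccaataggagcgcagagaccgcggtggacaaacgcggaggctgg

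Ube2c carries 1 CHR and 6 CCAAT boxes, Top2a 2 CHRs and 6 CCAAT boxes, Kif23 1 of each close to the start, and Mcm5 3 E2F matches beside 1 CHR and 3 CCAAT boxes that are not in capitals here. Among genes that are no members, 69.2% of 26 windows of other G2/M genes and 14.3% of 21 windows of other S-phase genes held a CHR, and 23.1% and 71.4% held E2F letters.

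The 4 libraries held between 150591289 and 169978362 UMIs (unique molecular identifiers, 1 per captured transcript), and 13489 to 18808 cells per library passed the filters. Any 2 libraries shared 56 to 88 cell barcodes. The labels name all samples as pancreatic cancer cells, but the libraries also held immune cells, and cells were assigned to 5 classes by markers that include no cell cycle gene. In UMIs per 1000000 UMIs of the class (CPM), the summed markers of the own class were at 2372 to 4163 in cancer cells (Epcam, keratins), 13197 to 15813 in macrophages (C1qa, Csf1r), 4446 to 5727 in T cells (Cd3e, Trac), 1696 to 2999 in dendritic cells (Flt3, Zbtb46) and 83955 to 91569 in neutrophils (S100a8, Csf3r). The T cell class also held NK cell markers at 2679, 703, 852 and 1868 CPM. Cells that passed for both T and NK cells were kept in it where their T cell marker UMIs were at least as many. The overexpressed gene itself, Mlkl (chr8:111311797-111338177, minus strand), was at 16.3 CPM in the cancer cells of OE-Vector 1 and at 8.64, 12.9 and 20.2 CPM in those of OE-MLKL 1, 2 and 3 (13.9 ± 5.82, SD, n = 3), so that 1 of the 3 tumours labelled as overexpressing it lay above the vector tumour. Whether these UMIs include transcripts of the construct cannot be told from 3′ counts, and each direction given below between the arms rests on the labels.

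With equal UMIs per cell, T cells on average held the most cycling cells, followed by dendritic cells, cancer cells and macrophages. Neutrophils held almost none. A cell was called cycling where at least 3 UMIs from at least 2 G2/M members, or the same from G1/S members, were left after the cell had been thinned at random to 1000 UMIs, so that each cell was judged on the same number of UMIs. Averaged over the 4 libraries, the share was 22.6% ± 3.65 (SD, n = 4) in T cells, 18.1% ± 6.47 in dendritic cells, 12.7% ± 5.31 in cancer cells, 7.23% ± 4.0 in macrophages and 0.665% ± 0.411 in neutrophils.

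In cancer cells the share was 17.9% in OE-Vector 1 (466 of 2598 cells; 95% interval 16.5 to 19.5), 5.31% in OE-MLKL 1 (319 of 6007 cells; 95% interval 4.76 to 5.91), 14.1% in OE-MLKL 2 (869 of 6150 cells; 95% interval 13.3 to 15) and 13.3% in OE-MLKL 3 (454 of 3401 cells; 95% interval 12.2 to 14.5). OE-MLKL 1 stood apart, below the interval of each other library. In macrophages it was 10.6% in OE-Vector 1 (191 of 1804 cells; 95% interval 9.21 to 12.1), 1.54% in OE-MLKL 1 (38 of 2463 cells; 95% interval 1.09 to 2.11), 7.46% in OE-MLKL 2 (171 of 2291 cells; 95% interval 6.42 to 8.62) and 9.32% in OE-MLKL 3 (249 of 2671 cells; 95% interval 8.25 to 10.5). Again OE-MLKL 1 was the low library, while the other 3 lay between 7.46% and 10.6%. The intervals are exact binomial ones and cover counting error only.

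In T cells the share was 20.6% in OE-Vector 1 (186 of 903 cells; 95% interval 18.0 to 23.4), 26.9% in OE-MLKL 1 (139 of 516 cells; 95% interval 23.2 to 31.0), 24.1% in OE-MLKL 2 (140 of 581 cells; 95% interval 20.7 to 27.8) and 18.7% in OE-MLKL 3 (140 of 747 cells; 95% interval 16 to 21.7). Here OE-MLKL 1 was the highest library by share, the opposite of its rank in cancer cells and macrophages. By the summed level of the panel, however, its T cells were the lowest, at 3674 CPM against 4059.9, 4048 and 3863 CPM in OE-Vector 1 and OE-MLKL 2 and 3. In dendritic cells, the smallest class, it was 18.0% in OE-Vector 1 (20 of 111 cells; 95% interval 11.4 to 26.4), 9.09% in OE-MLKL 1 (4 of 44 cells; 95% interval 2.53 to 21.7), 24.1% in OE-MLKL 2 (13 of 54 cells; 95% interval 13.5 to 37.6) and 21% in OE-MLKL 3 (37 of 176 cells; 95% interval 15.3 to 27.8). In neutrophils it was 0.706% in OE-Vector 1 (26 of 3685 cells; 95% interval 0.461 to 1.03), 0.116% in OE-MLKL 1 (1 of 859 cells; 95% interval 0.00295 to 0.647), 1.11% in OE-MLKL 2 (12 of 1080 cells; 95% interval 0.575 to 1.93) and 0.728% in OE-MLKL 3 (36 of 4943 cells; 95% interval 0.511 to 1.01). Some of these cells were called only through Kif23, as given below. Whether the neutrophils called were dividing was not tested. Too shallow to be thinned, and so left out, were 1521, 4011, 6240 and 552 neutrophils, against 34 to 158 cancer cells, 32 to 156 macrophages, 4 to 19 T cells and 0 to 2 dendritic cells per library.

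**Figure D1:**
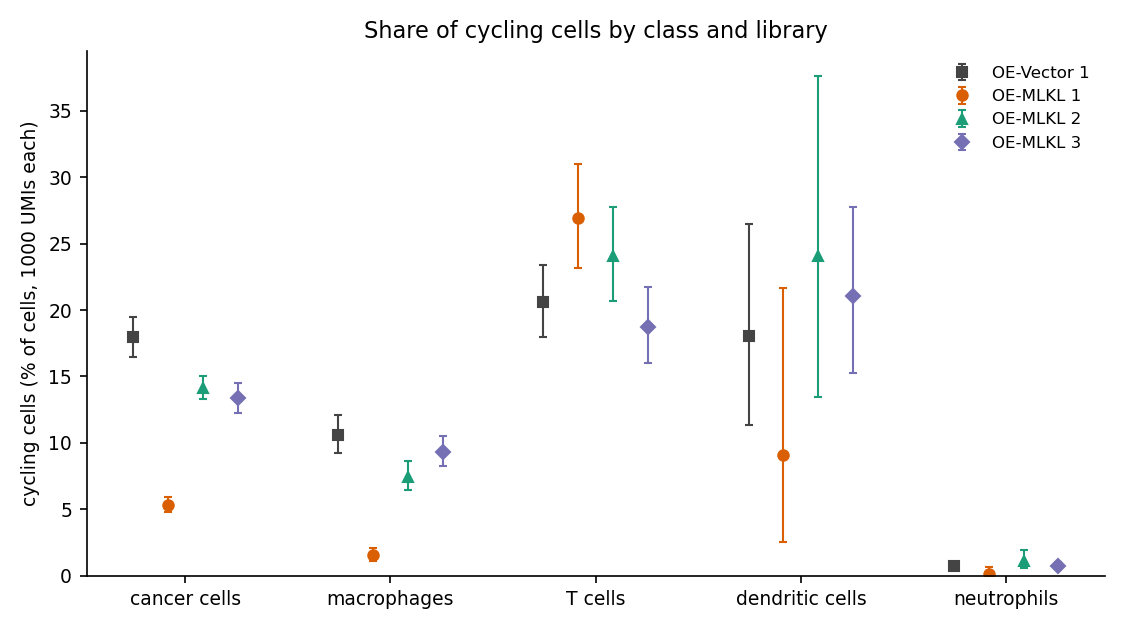
Share of cycling cells (percent, y axis) in each cell class (x axis), 1 point per library with its exact 95% binomial interval. T cells lie between 18.7% and 26.9%, neutrophils between 0.116% and 1.11%, and OE-MLKL 1 is the lowest library in cancer cells (5.31%) and macrophages (1.54%) but the highest in T cells (26.9%).

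Within tumours, cancer cells exceeded macrophages in 4 of 4 libraries, by 5.45 ± 1.82 percentage points (SD, n = 4). T cells exceeded cancer cells in 4 of 4, by between 2.66 points in OE-Vector 1 and 21.6 points in OE-MLKL 1, and exceeded macrophages in 4 of 4, by 15.4 ± 7.44 points. Dendritic cells exceeded cancer cells in 4 of 4, but in OE-Vector 1 by 0.0811 points only. This order turned in OE-Vector 1 with stricter marker levels (12.9% of dendritic against 17.3% of cancer cells) and with doublets kept (16.9 against 17.6%), and in OE-MLKL 1 at 500 UMIs per cell (4.55 against 5.05%). At 2000 UMIs per cell, neutrophils exceeded macrophages in OE-MLKL 1 (5.0 against 2.74%). T cells and dendritic cells, the neighbours at the top, were in no fixed order (T cells higher in 3 of 4 libraries, mean difference 4.54 ± 9.09 points). Over the 10 pairs of classes, 9 had the same direction in all 4 libraries, each with an exact two-sided sign-flip p = 0.125, the smallest that 4 libraries allow (Benjamini-Hochberg adjusted p = 0.139), and the pair of T and dendritic cells had p = 0.375.

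The rank of the classes depended on the thinning. The median depth of a cell was 24094, 11507, 11089.5 and 19130 UMIs in cancer cells, 8348, 4097, 4765 and 6899 in macrophages, 3590, 3400, 2530.5 and 3130 in T cells, 8359, 5592, 5102 and 8852 in dendritic cells and 1155, 723, 746 and 1349 in neutrophils. Without thinning, the same call took in 81.8, 51.8, 59.7 and 76.0% of cancer cells and 39.5, 45.2, 40.5 and 40.5% of T cells, so that cancer cells led in all 4 libraries. It took in 49.7, 13.5, 28.0 and 40.4% of macrophages, 44.2, 31.8, 50 and 56.2% of dendritic cells and 1.13, 0.144, 0.519 and 1.95% of neutrophils. With equal UMIs per cell, a class with more RNA per cell has each transcript sampled less often, and the thinned share is therefore the share of cells in which the panel took a given part of the transcriptome. The order of the thinned shares is also that of the levels per 1000000 UMIs given below. Both set the panel against all UMIs, so that this shared order does not decide between the thinned and the unthinned rank.

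The call is a cut on a count and not a natural boundary. In the thinned counts, cells were sorted by the UMIs of their G2/M or G1/S members, whichever were more. Cells at exactly 3 such UMIs made up 3.73, 1.25, 3.58 and 3.38% of cancer cells and 4.65, 9.30, 6.71 and 5.49% of T cells, and cells at 2 UMIs 5.39, 3.56, 5.64 and 6.26% and 8.53, 10.7, 10.5 and 11.1%. The cells called cycling were chosen by their UMIs of the panel, so that a high share of these UMIs follows in part from the call. They carried 85.8, 78.8, 81.0 and 81.2% of them in T cells, 75.6, 60.5, 73.6 and 69.2% in cancer cells and 84.7, 47.0, 80.9 and 75.0% in dendritic cells. In macrophages they carried 64.2, 27.7, 58.2 and 66.8%, with the low value in OE-MLKL 1, and in neutrophils only 4.54, 1.06, 12.5 and 4.23%. In cancer and T cells the cycling cells were also deeper before thinning, with median UMIs of 38356, 22646, 17505 and 29614 against 23582, 11239, 10687 and 19103 in other cancer cells and 8352, 6379, 5738 and 8532 against 3185, 2880, 2212 and 2798 in other T cells.

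Cycling cells were mostly called by the mitotic part of the panel. Cells that passed on G2/M members alone made up 74.7, 75.5, 65.2 and 68.1% of cycling cancer cells, 51.8, 68.4, 60.2 and 60.2% of cycling macrophages, 53.2, 71.9, 42.1 and 59.3% of cycling T cells and 60, 75.0, 46.2 and 75.7% of cycling dendritic cells. This was the largest of the 3 kinds of call in each library of these 4 classes. Cells that passed on G1/S members alone made up 13.3, 15, 22.7 and 21.6% in cancer cells, 35.6, 21.1, 28.1 and 24.5% in macrophages and 26.9, 20.9, 35 and 24.3% in T cells. Cells that passed on both made up 12, 9.40, 12.1 and 10.4% in cancer cells and 19.9, 7.19, 22.9 and 16.4% in T cells. The G2/M part has 24 genes and the G1/S part 16, so the split does not give the lengths of the phases. The cycling neutrophils, 26, 1, 12 and 36 cells, passed on G2/M members alone in 25, 1, 8 and 29 cells.

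**Figure D2:**
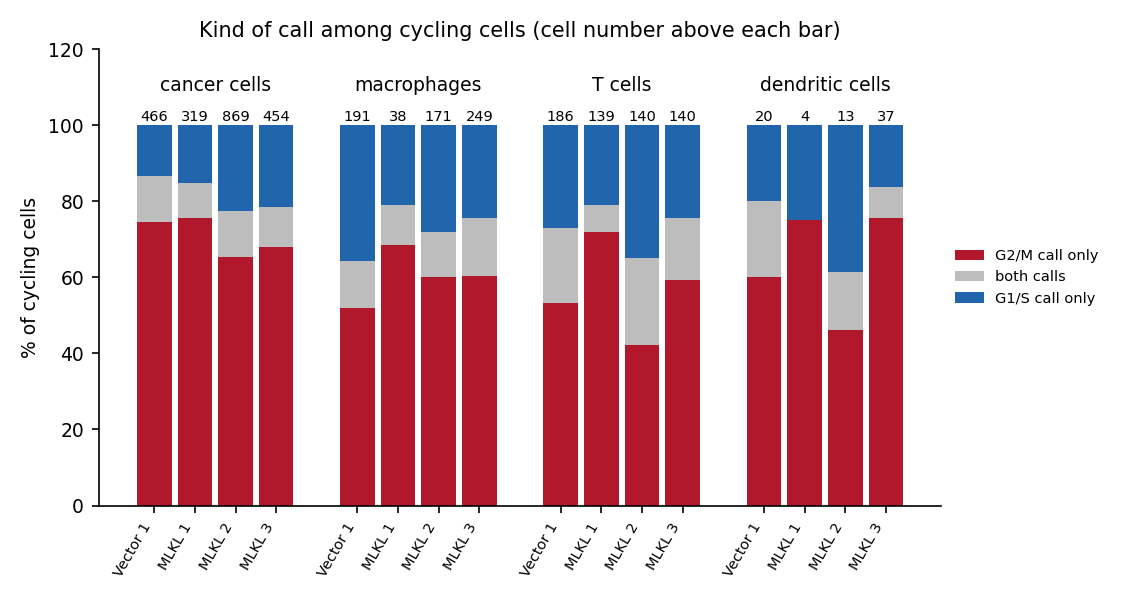
Kinds of call among cycling cells (percent of cycling cells, y axis) for each class and library (x axis): G2/M members alone, G1/S members alone, or both, stacked to the whole, with the number of cycling cells given per bar. G2/M alone is the largest kind in each bar, and neutrophils, with 1 to 36 cycling cells, are not drawn.

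Levels of the panel in CPM followed the same order of classes. Summed over the 40 members they were 4059.9, 3674, 4048 and 3863 CPM in T cells, 2899, 1294, 2867 and 2471 in dendritic cells, 2283, 1079, 2018 and 1876 in cancer cells, 1419.98, 519.96, 1179.9 and 1499 in macrophages and 443, 268, 423 and 507 in neutrophils. Relative to their mean, T cells varied least between libraries, and OE-MLKL 1 was the lowest library in all 5 classes. In such sums, fewer cycling cells and less of a transcript per cycling cell cannot be told apart. Each class was then compared with the macrophages of the same tumours by edgeR's quasi-likelihood test on UMI counts summed per library and class, with the library as a block and Benjamini-Hochberg adjustment over 13446 genes. All 40 members passed the filter on low counts. Changes are log2 ratios of class over macrophages with their standard error (SE). The p-values measure how far differences between classes vary from tumour to tumour, with 1 estimate of this spread per gene shared by all 5 classes.

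In T cells 40 of 40 members were higher than in macrophages, against 29.5% of all genes tested. The median of the members was 1.70, with 1.81 for the G2/M and 1.5 for the G1/S members, while the median of all genes was -0.02. The spindle motor Kif11 was furthest apart with 2.39 (SE 0.23, adjusted p = 2.47e-08), followed by the centromeric histone Cenpa with 2.34 (SE 0.23) and the spindle protein Hmmr with 2.28 (SE 0.31). The replication clamp Pcna was the least with 0.53 (SE 0.15, adjusted p = 0.00459). All 40 calls held in each of 10 alternative settings.

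In cancer cells 22 of 40 members were higher than in macrophages, against 35.4% of all genes, and 3 were lower, against 33.4%. The panel split by phase: 17 of 24 G2/M members were higher and 0 lower (median 0.66), whereas 5 of 16 G1/S members were higher and 3 lower (median -0.16). The median of all genes was 0.03. All 6 spindle members were higher, as were 5 of 8 mitotic kinase and cyclin members and 4 of 7 kinetochore and chromosome members. Among the G1/S members, 2 of 8 helicase and licensing members were higher and 1 lower, 2 of 3 nucleotide supply members were higher, and 0 of 2 G1 cyclins was called. Thymidylate synthase, Tyms, was higher by 1.46 (SE 0.18, adjusted p = 3.87e-07), the anaphase activator Cdc20 by 1.38 (SE 0.23) and the helicase subunit Mcm7 by 1.26 (SE 0.17). Lower were Fen1, the endonuclease that trims Okazaki fragments, at -0.89 (SE 0.12, adjusted p = 2.1e-06), Mcm3 at -0.69 (SE 0.15) and Pcna at -0.59 (SE 0.15, adjusted p = 0.00153). These 3 are all G1/S members. Cdc20, Mcm7 and Fen1 are overlapped on the other strand by counted genes, and the use of strand in counting is not given in the sources used here. Without OE-MLKL 2, 16 members were called in place of 25, while the share of all genes called in either direction was 61.1% in place of 68.8%.

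In dendritic cells 35 of 40 members were higher than in macrophages, against 16.5% of all genes, and 0 were lower, against 20.9%. The median was 1.07, against -0.10 over all genes. Kif11 was higher by 1.69 (SE 0.27, adjusted p = 5.16e-05), Kif23 by 1.65 (SE 0.31) and the chromatin copying factor Uhrf1 by 1.60 (SE 0.37). The 5 members that were not called had values of 0.35 (SE 0.16, adjusted p = 0.106) for Pcna, 0.62 (SE 0.35) for Gins2, 0.65 (SE 0.25) for Bub1b, 0.92 (SE 0.40) for Bub1 and 0.98 (SE 0.38) for Ccnb2. This class held 44 to 178 cells per library, and without OE-MLKL 2 the count of members called was 23, while the share of all genes called in either direction was 30.4% in place of 37.4%.

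In neutrophils 38 of 40 members were lower than in macrophages, against 36.1% of all genes, and the median was -1.62 against 0.00 over all genes. Mcm3 was lower, at -2.82 (SE 0.18, adjusted p = 1.65e-10), the kinetochore motor Cenpe at -2.44 (SE 0.23) and Mki67 at -2.12 (SE 0.22). The helicase partner Gins2 was not called at -0.55 (SE 0.27, adjusted p = 0.0772). A single member, Kif23, was higher, by 1.80 (SE 0.26, adjusted p = 4.6e-06).

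**Figure D3:**
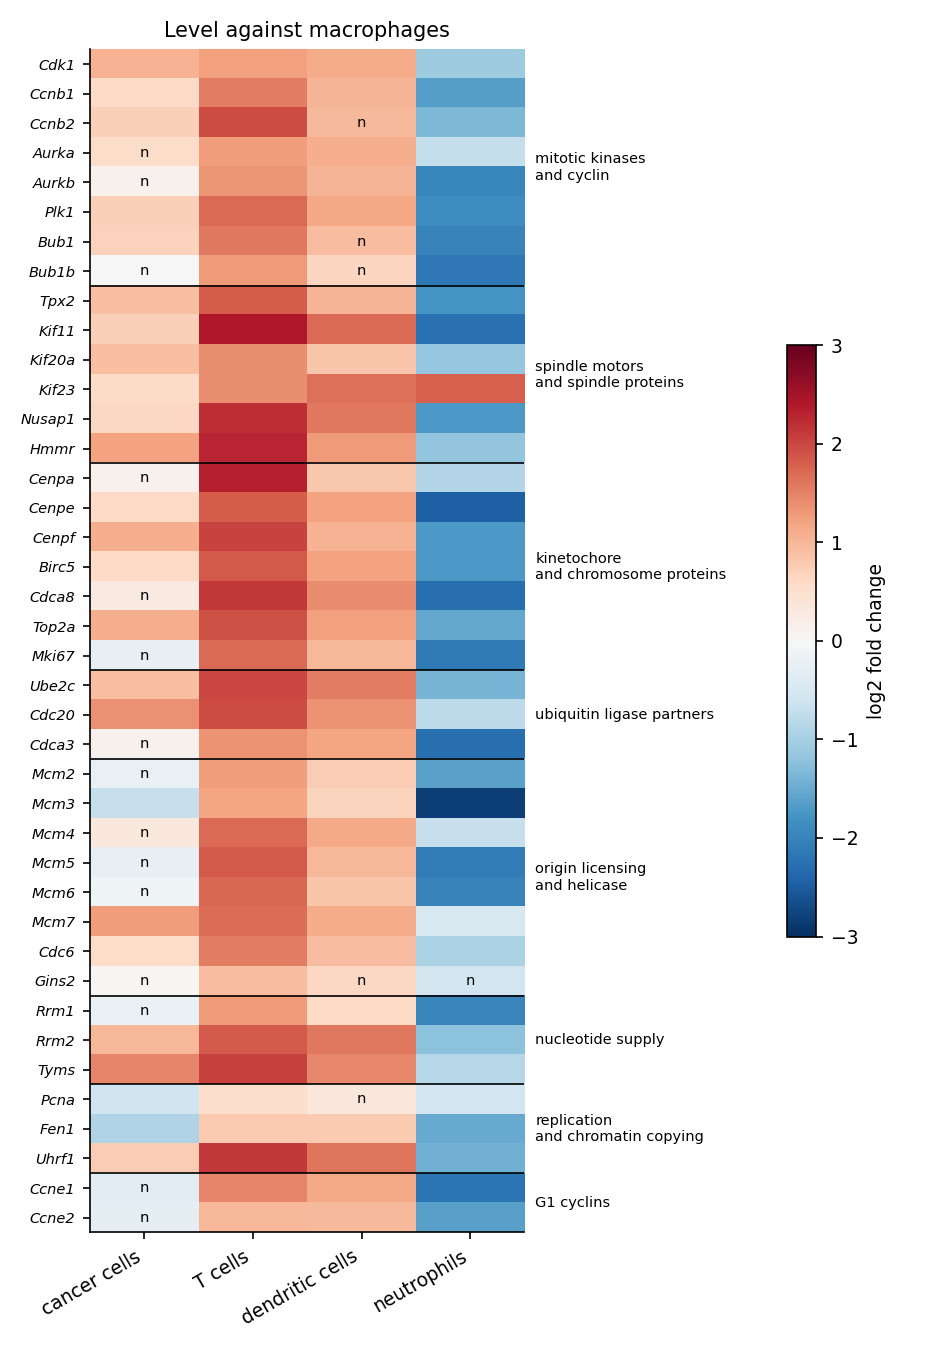
Log2 ratio of each member's CPM in a cell class over macrophages (colour), with members in rows ordered by role and cancer cells, T cells, dendritic cells and neutrophils in columns. The letter n marks values that edgeR did not call. Members are higher in T cells in 40 of 40 rows and lower in neutrophils in 38 of 40, with Kif23 higher and Gins2 not called, and cancer cells are higher mostly among the G2/M rows.

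The named members show how these levels are built. Among the mitotic regulators, Cdk1, the kinase that drives entry into mitosis, was at 87.9, 56.7, 79.0 and 44.8 CPM in cancer cells and 35.8, 13.0, 32.0 and 28.3 in macrophages. In T cells it was at 77.0, 92.9, 66.9 and 48.5 and in dendritic cells at 88.1, 26.1, 92.4 and 38.8 CPM, and neutrophils held 11.9, 11.6, 10.2 and 11.6. Cancer and T cells overlapped for Cdk1, with both above macrophages in 4 of 4 libraries. Its partner Ccnb1, cyclin B1, was at 37.1, 20.2, 36.5 and 27.5 CPM in cancer cells, 21, 6.69, 21.2 and 19.8 in macrophages and 49.7, 55.0, 64.1 and 45.4 in T cells. Dendritic cells held 39.5, 11.2, 36.3 and 38.8 and neutrophils 6.32, 2.84, 5.35 and 4.15 CPM. For Ccnb1, T cells were the highest class in 4 of 4 libraries.

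Among the chromosome proteins, Mki67, which coats mitotic chromosomes and is the routine marker of proliferation, was at 332, 207, 320.4 and 398 CPM in T cells and 219, 55.9, 218 and 230.2 in dendritic cells. In cancer cells it was at 108, 36.4, 96.9 and 120.3 and in macrophages at 75.9, 50.2, 85.0 and 143 CPM, and neutrophils held 14.1, 5.16, 23.8 and 32.7. Cancer cells and macrophages exchanged ranks between libraries, and their difference for Mki67 was -0.26 (SE 0.20, adjusted p = 0.268) by edgeR and not called. The free RNA of each library, taken from near-empty barcodes as described below, held 90.7, 44.2, 89.8 and 77.6 CPM of Mki67. Top2a, the topoisomerase that untangles sister chromatids, separated them: it was at 357, 115, 249.5 and 344 CPM in cancer cells and 135, 26.4, 106 and 195 in macrophages, a difference of 1.09 (SE 0.24). T cells held 403, 301, 405 and 502, dendritic cells 339, 93.2, 261 and 317 and neutrophils 37.6, 12.1, 26.2 and 55.9 CPM of Top2a. Birc5 (survivin), a subunit of the chromosomal passenger complex, was at 108, 49.1, 97.5 and 55.9 CPM in cancer cells, 61.4, 13.8, 48.8 and 49.5 in macrophages and 191, 173, 166 and 121 in T cells. It was at 146, 67.1, 132 and 65.2 CPM in dendritic cells and 15.8, 6.70, 14.3 and 8.81 in neutrophils. T cells were the highest class for Mki67, Top2a and Birc5 in 4 of 4 libraries.

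Among the G1/S members, the clamp Pcna was at 150.3, 66.8, 106 and 100.1 CPM in macrophages and 88.5, 65.7, 90.9 and 80.7 in cancer cells. T cells held 220.4, 135, 201 and 133, dendritic cells 152, 116, 198 and 97.8 and neutrophils 64.7, 50.3, 63.2 and 66.6 CPM. Pcna thus varied least between the classes of the members named here, and its level in neutrophils was below the 118, 80.9, 103 and 79.9 CPM of the free RNA. The helicase subunit Mcm5 was at 105, 80.6, 115 and 81.9 CPM in T cells, 28.2, 14.0, 31.4 and 23.6 in cancer cells and 40.9, 7.85, 24.4 and 28.7 in macrophages. Dendritic cells held 61.1, 44.7, 59.4 and 43.1 and neutrophils 6.32, 2.58, 5.18 and 5.66 CPM. Mcm5 did not separate cancer cells from macrophages (-0.25, SE 0.21, adjusted p = 0.307).

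For nucleotide supply, Rrm2, the inducible subunit of ribonucleotide reductase, was at 32.5, 24.9, 44.7 and 34.5 CPM in cancer cells, 21.4, 4.73, 17.2 and 17.6 in macrophages and 82.7, 45.8, 67.8 and 43.9 in T cells. Dendritic cells held 58.4, 37.3, 62.7 and 33.2 and neutrophils 4.43, 3.35, 7.25 and 6.92 CPM. Tyms was at 56.1, 22.0, 41.9 and 33.8 CPM in cancer cells and 16.3, 5.62, 14.1 and 11.1 in macrophages, with no overlap between the classes. It was at 56.1, 48.0, 70.6 and 40.8 CPM in T cells, 56.6, 18.6, 36.3 and 19.1 in dendritic cells and 6.96, 3.09, 7.42 and 5.16 in neutrophils. Ccne1 (cyclin E1), which opens S phase with Cdk2, was at 19.4, 33.0, 26.7 and 19.9 CPM in T cells, 6.42, 5.85, 9.62 and 8.59 in cancer cells and 8.75, 3.93, 9.28 and 9.41 in macrophages. Dendritic cells held 16.2, 29.8, 16.5 and 14.8 and neutrophils 0.949, 1.29, 2.42 and 1.51 CPM of Ccne1. Between cancer cells and macrophages Ccne1 differed by -0.31 (SE 0.23, adjusted p = 0.232), which was not called.

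The balance of the phases also differed. The summed G2/M level was 3.12, 1.98, 2.20 and 2.37 times the summed G1/S level in cancer cells and 1.36, 1.32, 1.57 and 2.03 times in macrophages, higher in cancer cells in 4 of 4 libraries. It was 2.08, 2.72, 1.82 and 2.33 times in T cells, 2.30, 1.01, 1.71 and 2.54 times in dendritic cells and 1.88, 1.05, 1.30 and 1.65 times in neutrophils.

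Free RNA from broken cells adds to the counts of all droplets. It was read from barcodes with at most 100 UMIs, where the 40 members summed to 1856, 999, 1679 and 1293 CPM. Relative to it, the panel stood at 2.19, 3.68, 2.41 and 2.99 times in T cells, 1.56, 1.29, 1.71 and 1.91 times in dendritic cells, 1.23, 1.08, 1.20 and 1.45 times in cancer cells, 0.765, 0.52, 0.703 and 1.16 times in macrophages and 0.238, 0.269, 0.252 and 0.392 times in neutrophils. T cells were the furthest above the free RNA in 4 of 4 libraries, and neutrophils lay furthest below it. Macrophages were below it in 3 of 4 libraries. The free RNA of OE-MLKL 1 was also the poorest in the panel, as were its cells. The part of free RNA in the levels of each class was not tested.

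Kif23, the motor of the central spindle that is needed for cytokinesis, was the exception in neutrophils. In neutrophils it was at 68.3, 29.6, 40.7 and 68.5 CPM, against 21.2, 5.71, 14.6 and 28.4 in macrophages and 36.1, 18.3, 31.2 and 30.8 in cancer cells. It was at 44.9, 50.2, 47.7 and 47.8 CPM in T cells and 72.8, 29.8, 72.6 and 48.6 in dendritic cells, and at 32.7, 16, 24 and 23.8 in the free RNA. Neutrophils were above macrophages and cancer cells in each library. Their level was 2.09, 1.86, 1.70 and 2.88 times that of the free RNA, while the highest of the other 39 members reached 0.562, 0.767, 0.614 and 0.853 times and their median 0.171, 0.172, 0.194 and 0.283 times. Neutrophils outside the cycling call held 60.2, 30.6, 34.6 and 66.2 CPM of Kif23, against 4.89, 3.67, 3.48 and 5.48 in macrophages outside it. Kif23 lies at chr9:61915905-61946774 on the minus strand (annotation GENCODE M21), where no other counted gene overlaps it, and its window printed above holds 1 CHR and 1 CCAAT box. Because Kif23 enters the cycling call, the share of cycling neutrophils was also taken without it, a choice made after seeing the data, and was 0.407, 0, 1.11 and 0.546% (15, 0, 12 and 27 cells). The count of 0 among 859 neutrophils allows a share of up to 0.349% by the limit of 3 counts of the total, with an exact 95% upper bound of 0.429%. In cancer cells the share without Kif23 was 17.9, 5.29, 14.0 and 13.3% and in T cells 20.3, 26.6, 24.1 and 18.7%.

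**Figure D4:**
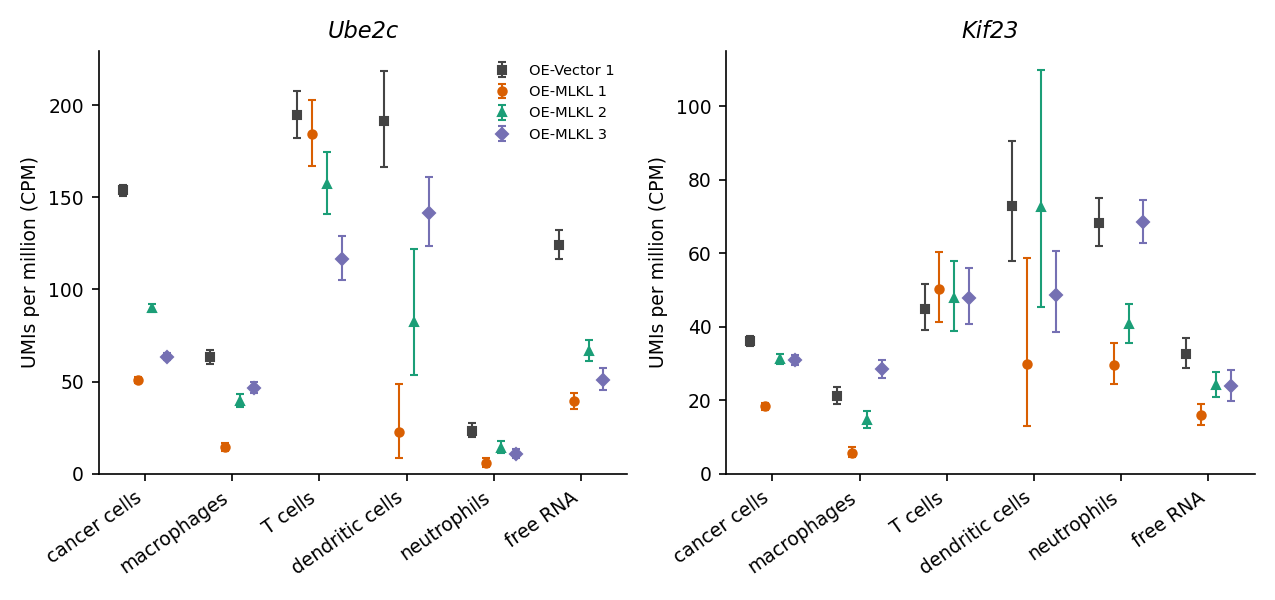
CPM (y axis, from 0) of Ube2c and of Kif23 in the 5 cell classes and in free RNA (x axis), 1 point per library. Kif23 is higher in neutrophils (29.6 to 68.5) than in macrophages (5.71 to 28.4) within each library, whereas Ube2c is lowest in neutrophils (5.67 to 23.4), and OE-Vector 1 is the highest library for Ube2c in all 5 classes.

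The comparison of OE-MLKL with OE-Vector asks whether tumours labelled as overexpressing MLKL differ in proliferation. The share of cycling cancer cells was 10.9% ± 4.88 (SD, n = 3) in OE-MLKL against 17.9% in OE-Vector 1, a difference of -7.01 percentage points (exact two-sided permutation p = 0.5). All 3 OE-MLKL libraries were lower than OE-Vector 1, but the largest gap was that of OE-MLKL 1 and without this library the difference was -4.20 points. In macrophages the share was 6.11% ± 4.06 against 10.6%, a difference of -4.48 points (exact permutation p = 0.5), and -2.19 points without OE-MLKL 1. T cells differed by 2.66 points in the other direction, 23.3% ± 4.16 against 20.6% (exact permutation p = 0.75), with OE-MLKL 3 below OE-Vector 1. The T cell difference was 0.821 points without OE-MLKL 1 and 4.92 points without OE-MLKL 3. It was 0.111 points where a cycling cell needed at least 5 UMIs of G2/M or of G1/S members, and 13.7 points at 2000 UMIs per cell. The T cell class also held the 6 summed NK cell markers at 2679 CPM in OE-Vector 1 and 703, 852 and 1868 CPM in OE-MLKL 1 to 3, and their part in this difference was not tested. Dendritic cells differed by 0.04 points (18.1% ± 7.92 against 18.0%) and neutrophils by -0.05 points (0.652% ± 0.502 against 0.706%), each with an exact permutation p = 1, and both changed sign in 6 of 11 alternative settings. With 1 OE-Vector library, none of the 5 differences could pass the exact permutation test, whose smallest p for 1 against 3 libraries is 0.25.

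No member was called between the arms in any class by edgeR's quasi-likelihood test on summed counts. In cancer cells 0 of 40 members were called, against 0.00589% of all genes tested, in macrophages 0 of 40 against 0.00733%, in T cells 0 of 40 against 0.00882%, in dendritic cells 0 of 40 against 0.0365% and in neutrophils 0 of 40 against 0.0%. The test has 2 residual degrees of freedom, and it assumes that the lone OE-Vector tumour varies as the OE-MLKL tumours do. At an unadjusted p under 0.05 there were 2, 1, 0, 3 and 1 members in these 5 classes, against 4.61%, 5.9%, 4.58%, 4.79% and 8.13% of all genes. DESeq2 called 1 member in cancer cells and 0 in the other classes, the 1 being Ube2c in cancer cells (log2 fold change -1.26, DESeq2 adjusted p = 0.0457). Of all genes DESeq2 called 1.86%, 1.55%, 0.247%, 0.0365% and 1.9% in cancer cells, macrophages, T cells, dendritic cells and neutrophils. Without OE-MLKL 3, edgeR called 1 of the 32 members tested in dendritic cells (Ube2c, -1.81) and 1 in neutrophils (Kif23, -1.16), where the same fits called 2.37% and 10.9% of all genes. In cancer cells, macrophages and T cells these fits called 0 members, against 1.79%, 2.36% and 0.0% of all genes.

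The direction was shared by most members although none passed the test. Most members are transcribed in the same dividing cells, and all are compared with the same OE-Vector library. Counts of members are therefore not counts of independent observations. Fold changes are given on the log2 scale, below 0 where OE-MLKL was lower. In cancer cells 36 of 40 members had values below 0, with a median of -0.53 against 0.03 over all genes. All 24 G2/M members were below 0, between -1.38 and -0.21 (median -0.61), whereas the G1/S members had a median of -0.09 with 12 of 16 below 0. By role, the medians were -0.61 for the mitotic kinases and cyclins, -0.56 for spindle members, -0.67 for kinetochore and chromosome members and -0.74 for ubiquitin ligase partners, but -0.24 for licensing and helicase, -0.01 for nucleotide supply, -0.07 for replication and chromatin copying and 0.13 for the G1 cyclins. Without OE-MLKL 1, the median of the 24 G2/M members was -0.44, that of all 40 was -0.34 and all 24 stayed below 0, and without OE-MLKL 3 it was 23 of 24. Scaling by library size alone moved the median of all genes by 0.12 and left 31 of 40 members below 0 (median -0.42).

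In macrophages 38 of 40 members had values below 0 (median -0.52 against 0.04 over all genes), and here the G1/S members were the further from 0, with a median of -0.67 and 16 of 16 below 0, against -0.45 for the G2/M members. Without OE-MLKL 1 the median was -0.31 and the G2/M median -0.08 with 15 of 24 below 0, so that their shift rested largely on that library. In dendritic cells 33 of 40 were below 0 (median -0.41 against 0.04) and in neutrophils 29 of 40 (median -0.34 against 0.05). Without OE-MLKL 1 these medians were -0.17 and -0.14. With library size alone as the scaling the neutrophil median was -0.09. In CPM the mean summed levels of the phases in neutrophils differed in direction. The summed G2/M level was 289 in OE-Vector 1 against 231 ± 89.6 (SD, n = 3) in OE-MLKL, but the summed G1/S level was 154 against 169 ± 32.6. The G1/S sum of OE-MLKL 1, at 131 CPM, lay below that of OE-Vector 1. CPM scales by library size alone, and with this scaling the median of all genes in neutrophils was itself above 0, at 0.28. In T cells the members were split, 26 of 40 below 0, with a median of -0.09 against 0.03 over all genes, and 20 of 40 below 0 (median 0.01) without OE-MLKL 3.

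**Figure D5:**
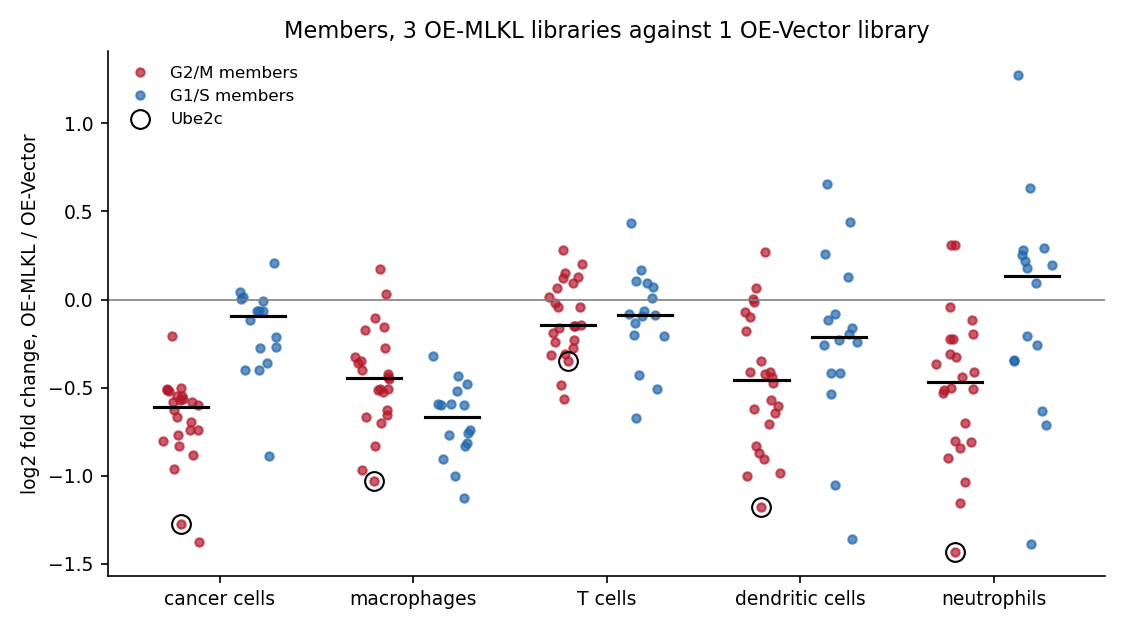
Log2 fold change between the arms (y axis, below 0 where OE-MLKL was lower) for each of the 40 members in each cell class (x axis), G2/M and G1/S members in separate colours and Ube2c ringed, with a bar at each median. None of the points passed edgeR's test, all 24 G2/M members of cancer cells lie below 0, and T cells are centred near 0 (median -0.09).

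Ube2c, the ubiquitin-conjugating enzyme of the anaphase-promoting complex, was among the members furthest apart in cancer cells, macrophages, dendritic cells and neutrophils. It was at 154, 50.9, 89.8 and 63.6 CPM in cancer cells, 63.1, 14.5, 39.4 and 46.7 in macrophages and 195, 184, 157 and 117 in T cells. In dendritic cells it was at 191, 22.4, 82.5 and 142 and in neutrophils at 23.4, 5.67, 14.2 and 10.6 CPM. OE-Vector 1 was the highest library in all 5 classes, but also in the free RNA (124, 39.5, 66.7 and 51.1 CPM). The log2 fold change was -1.27 (SE 0.38, adjusted p = 0.979) in cancer cells, -1.43 (SE 0.45, adjusted p = 0.557) in neutrophils, -1.18 (SE 0.49, adjusted p = 0.956) in dendritic cells and -1.03 (SE 0.51, adjusted p = 0.871) in macrophages, by edgeR with Benjamini-Hochberg adjustment. Ube2c is overlapped on the other strand by Tnnc2, and the use of strand in counting is not given in the sources used here. The part of free RNA in the difference was not tested.

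The other members furthest apart in cancer cells were Hmmr and Bub1. Hmmr, a spindle assembly protein, was at 61.2, 14.0, 27.2 and 36.8 CPM (-1.38, SE 0.41, adjusted p = 0.979), with free RNA at 35.9, 12.1, 21.9 and 17.3. Bub1, a kinase of the spindle checkpoint, was at 20.9, 6.13, 12.1 and 17.3 CPM (-0.97, SE 0.45, adjusted p = 0.999). For both, OE-Vector 1 was above the 3 OE-MLKL libraries and OE-MLKL 1 was the lowest. In macrophages they were Mcm5, with the levels given above (-1.12, SE 0.55, adjusted p = 0.871), and Uhrf1 at 22.1, 2.14, 15.3 and 18.5 CPM (-1.0, SE 0.82, adjusted p = 0.903), where OE-MLKL 1 lay far below the other libraries.

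In T cells the members furthest apart were Rrm2 (-0.67, SE 0.36, adjusted p = 1), Bub1 at 31.0, 21.6, 16.4 and 26.1 CPM (-0.57, SE 0.32, adjusted p = 1) and Pcna (-0.51, SE 0.38, adjusted p = 1). OE-Vector 1 was above all 3 OE-MLKL libraries for each of them. In dendritic cells they were Tyms (-1.36, SE 0.47, adjusted p = 0.794) and Cdc6, which loads the helicase, at 17.1, 7.46, 13.2 and 7.38 CPM (-1.05, SE 0.80, adjusted p = 0.999), beside Ube2c. The dendritic cells of OE-MLKL 1 and 2 held only 268238 and 303114 UMIs in all, so that such levels rest on few UMIs. In neutrophils Cdc6 was at 4.11, 1.03, 1.55 and 2.77 CPM (-1.39, SE 0.65, adjusted p = 0.644) and Gins2 at 3.16, 4.90, 8.63 and 13.5 CPM (1.28, SE 0.61, adjusted p = 0.651). The neutrophils of OE-MLKL 1 held 3879686 UMIs, so that their Cdc6 level likewise rests on few UMIs. Gins2 was the member of the 3 furthest apart in neutrophils that was higher in all 3 OE-MLKL libraries.

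Rank alone gave a similar picture. OE-Vector 1 was above all 3 OE-MLKL libraries for 21 of 40 members in cancer cells, against 17.6% of all genes, and 20 of these 21 were G2/M members. In macrophages the count was 20 of 40 against 18.7%, with 8 G2/M and 12 G1/S members. It was 11 of 40 in T cells against 18.7%, 15 of 40 in dendritic cells against 19.7% and 8 of 40 in neutrophils against 16.1%. Only Ube2c and Birc5 were above in all 5 classes. OE-Vector 1 was below all 3 OE-MLKL libraries for 0, 0, 3, 2 and 6 members in these classes, against 32.2%, 34.4%, 25.1%, 24.6% and 42.5% of all genes. The 6 in neutrophils were Mcm2, Mcm4, Mcm7, Ccne1, Gins2 and Fen1. They are 6 of the 16 G1/S members, a share that is not above the 42.5% of all genes. OE-Vector 1 also had the deepest cancer cells and macrophages and OE-MLKL 1 the lowest panel level in free RNA, and their part in these counts was not tested.

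Whether the effect of the arms differed between classes was tested by an interaction term against macrophages, added after seeing the data. It called 0 of 40 members in cancer cells, T cells, dendritic cells and neutrophils by edgeR, against 0.0149%, 0.0223%, 0.00744% and 0.0297% of all genes. At an unadjusted p under 0.05 there were 0, 1, 1 and 3 members, against 4.7%, 4.98%, 4.73% and 9.24% of all genes. For the members, a difference between classes in the contrast of the arms was thus not detected. With 1 OE-Vector library, the fit cannot show that there is none. The estimates, which all share the macrophages as reference, were above 0 for 39 of 40 members in T cells (median 0.50), 23 in cancer cells (0.04), 23 in dendritic cells (0.14) and 25 in neutrophils (0.10), with medians of -0.02, -0.01, 0.01 and -0.02 over all genes. Of the 16 G1/S members, 16, 15, 14 and 15 were above 0. Without OE-MLKL 3, 1 member was called in T cells (Mcm5, 1.41) and 2 in neutrophils (Mcm7, 1.13, and Gins2, 1.57), in fits that called 1.5% and 5.76% of all genes. In cancer cells and dendritic cells 0 members were called, against 2.98% and 0.269% of all genes.

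Cycling cells were next compared with the other cells of their class for cell cycle genes that are no members. The cells were chosen with the members, so that the values are a description without a test. A gene with at least 40 UMIs in the class was counted where its CPM was at least 2-fold higher in cycling cells in all 4 libraries. Among 30 other G2/M genes this held for 27 in cancer cells, for 28 in macrophages and for 25 in T cells, and for 23 of 25 in dendritic cells. Among 30 other S-phase genes it held for 23 in cancer cells, 21 in macrophages and 10 in T cells, and for 10 of 25 in dendritic cells. Of all genes it held for 2.91% in cancer cells, 3.64% in macrophages, 2.56% in T cells and 2.41% in dendritic cells. The counts of other G2/M genes were above those of other S-phase genes in each of these classes. Calls on G2/M members alone were the largest kind among these cycling cells, so that this order is not independent of the call.

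The drivers of the cycle were less regular. Of 12 G1 drivers and transcription factors, 3 of 12 were counted in cancer cells, 5 of 12 in macrophages, 2 of 12 in T cells and 1 of 11 in dendritic cells. Foxm1, which activates the G2/M genes, had log2 ratios of cycling over other cells of 3.19, 3.34, 3.15 and 3.35 in cancer cells, 4.75, 6.07, 5.05 and 4.39 in macrophages and 3.58, 2.54, 3.33 and 3.72 in T cells. For Mybl2, which encodes B-MYB, they were 2.83, 3.79, 2.98 and 3.02 in cancer cells, 3.77, 3.75, 3.99 and 4.0 in macrophages and 3.59, 2.11, 2.22 and 2.48 in T cells. Ccnd2, a D cyclin of early G1, went the other way in T cells, with -1.0, -0.76, -1.13 and -1.03. Of the brakes, the kinase inhibitor Cdkn2d and the pocket protein Rbl1 were counted in cancer cells, and Cdkn2c (p18), Cdkn2d and Rbl1 in macrophages. In T cells it was Cdkn2c alone, with log2 ratios of 2.1, 1.22, 1.10 and 1.18.

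Genes of the cycle outside the panel were tested in the same fit. Against macrophages, 29 of 30 other S-phase genes and 27 of 30 other G2/M genes were higher in T cells, against 29.5% of all genes, with 0 and 1 lower. The S-phase ubiquitin ligase adaptor Dtl was higher by 2.60 (SE 0.22) and the chromatin protein Hmgb2 by 2.27 (SE 0.21). In cancer cells 14 of 30 other S-phase genes were higher and 3 lower, and 19 of 30 other G2/M genes were higher and 2 lower, against 35.4% and 33.4% of all genes. In dendritic cells 23 and 17 of 30 were higher, against 16.5%. In neutrophils 23 of 30 other S-phase genes and 22 of 30 other G2/M genes were lower, against 36.1% of all genes, while 3 and 5 were higher, against 34.1%, among them Hmgb2 by 1.98 (SE 0.21), the nuclear envelope receptor Lbr by 2.42 (SE 0.13) and the Cdk subunit Cks2 by 2.92 (SE 0.28).

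The D cyclins, which start the cycle in G1, were unequally spread over the classes. The D cyclin Ccnd1 was at 285, 347, 557 and 471 CPM in cancer cells, 170.1, 54.5, 228 and 299.9 in macrophages and 12, 10.6, 22.0 and 39.3 in T cells, which placed T cells lower than macrophages, at -3.34 (SE 0.30, adjusted p = 1.11e-08). Ccnd2 was at 306, 928, 983 and 440 CPM in dendritic cells, higher than in macrophages by 3.56 (SE 0.52), and higher in T cells by 2.19 (SE 0.47). Ccnd3 was at 278, 314, 352 and 315 CPM in neutrophils, higher by 2.23 (SE 0.18). Cdk4, the kinase of the D cyclins, was at 299, 205, 262 and 216 CPM in cancer cells, higher by 1.51 (SE 0.12). Of the 12 drivers, 8 were higher and 2 lower in cancer cells, 7 and 1 in T cells, 5 and 0 in dendritic cells and 2 and 6 in neutrophils. Of all genes, 35.4% were higher and 33.4% lower in cancer cells, 29.5% and 31.4% in T cells, 16.5% and 20.9% in dendritic cells and 34.1% and 36.1% in neutrophils.

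The brakes are genes that hold cells in G1 or out of the cycle. Of 14 brakes, 7 were lower and 1 higher in cancer cells than in macrophages, whereas 8 were higher and 4 lower in neutrophils. Of all genes, 33.4% were lower and 35.4% higher in cancer cells, and 34.1% were higher and 36.1% lower in neutrophils. Cdkn1a (p21), an inhibitor of cyclin-dependent kinases, was at 499, 1209.9, 819.7 and 414 CPM in neutrophils, 316, 318, 188 and 204 in macrophages and 65.8, 56.4, 51.1 and 60.3 in cancer cells. It was higher in neutrophils by 1.67 (SE 0.25) and lower in cancer cells, at -2.34 (SE 0.26). Btg2, an antiproliferative factor, was at 2466, 2136, 1724 and 2771 CPM in neutrophils and higher by 2.26 (SE 0.24). Rb1, the retinoblastoma protein, was lower in cancer cells (-1.91, SE 0.13). In T cells 4 brakes were higher and 4 lower, against 29.5% and 31.4% of all genes.

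Between OE-MLKL and OE-Vector, 0 of the genes in these 4 lists were called by edgeR in any class. At an unadjusted p under 0.05 there were 2 other G2/M genes and 2 brakes in cancer cells, 1 other G2/M gene each in macrophages and neutrophils, 1 brake in T cells and 2 drivers in dendritic cells, against 4.61%, 5.9%, 8.13%, 4.58% and 4.79% of all genes in these classes in that order. In cancer cells the median log2 fold change was -0.37 for the 30 other G2/M genes (27 of 30 below 0) and -0.20 for the 30 other S-phase genes, against 0.02 for the drivers, -0.08 for the brakes and 0.03 over all genes. In macrophages these medians were -0.25, -0.32, -0.13 and 0.09, against 0.04 over all genes. In T cells they were -0.04 for G2/M genes and 0.12 for S-phase genes. The summed other S-phase genes were at 311, 395, 437 and 421 CPM in neutrophils, lowest in OE-Vector 1, and at 1061, 816, 1155 and 989 CPM in dendritic cells. OE-Vector 1 was below all 3 OE-MLKL libraries for 42.5% of all genes in neutrophils.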

How the data were processed

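Single-cell 3′ RNA libraries of 4 orthotopic tumours were analysed, 1 labelled OE-Vector and 3 labelled OE-MLKL. The values are unnormalized UMI counts per gene and barcode, which the authors made with Cell Ranger and deposited as unfiltered matrices. The submitters' processing notes name Cell Ranger 2.1.1 and build mm10, while other sources name other versions. Whether intronic reads were counted, and the use of strand, are not given in the sources used here. Gene positions come from GENCODE M21 and promoter windows from RefSeq (GRCm38.p6).

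Barcodes with at least 500 UMIs, more than 200 genes, under 10% mitochondrial and at most 5% haemoglobin UMIs were kept, and those with the highest doublet scores were removed at 0.8% per 1000 cells (1893 to 4255 per library). A class needed at least 3 UMIs from at least 2 of its markers and a summed marker level of at least 10 (cancer cells), 40 (macrophages), 15 (T cells), 8 (dendritic cells) or 150 (neutrophils) per 10000 UMIs. These floors were set after the marker levels had been seen. Cells that passed for both T and NK cells went to the class with more marker UMIs, with ties given to T cells. Other cells in more than 1 class were left out. The members, the other gene lists and the tests were chosen with earlier results of these data known. The cycling share was taken after thinning each cell to 1000 UMIs. Intervals are exact Clopper-Pearson intervals at 95% and cover counting error only.

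Because cells are not replicates, the counts of a class were added up within each library and tested with edgeR 4.0.16 (TMM, filterByExpr, quasi-likelihood test, Benjamini-Hochberg over all genes tested, threshold 0.05) in R 4.3.3, with DESeq2 1.42.0 as an alternative. The tests were checked before use on simulated data, with changes larger than that of any member between the arms. The check does not tell how often changes of the size seen here would be called. Shares were compared over libraries by exact permutation or sign-flip tests in Python 3.11.15 (numpy 2.4.6, scipy 1.17.1). The labels do not say more of how replicates arose than that they are separate samples, and p-values measure the spread between these libraries. Values per library are given for Mki67, Top2a, Cdk1, Ccnb1, Birc5, Pcna, Mcm5, Rrm2, Tyms and Ccne1, for any member called between the arms and for the 3 members with the largest absolute log2 fold change in each class. Of the genes in the other lists, those named were among the called genes. Kif23 was chosen after its values were seen. Of the 40 members, 9 have a counted gene on the other strand: Kif20a, Nusap1, Ube2c, Cdc20, Cdca8, Mcm7, Ccne2, Gins2 and Fen1. Alternatives covered thinning, the cut, doublets, stricter marker levels, scaling, filters and leaving out each library.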

Additional observations from a re-analysis of the deposited data

How the results depend on the processing

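No paired analysis was possible because the libraries analysed here share 1 replicate number between the groups, and the labels do not say that a number links tumours. The difference in cycling share between OE-MLKL and OE-Vector stayed below 0 in cancer cells (-8.18 to -5.19 percentage points over the settings, -8.61 to -4.20 with each OE-MLKL library left out) and in macrophages (-5.86 to -2.61 and -6.08 to -2.19), and above 0 in T cells (0.111 to 13.7 and 0.821 to 4.92). It changed sign in 6 of 11 alternatives each in dendritic cells (-4.90 to 6.03 and -2.96 to 4.53) and neutrophils (-0.772 to 0.465 and -0.283 to 0.214). Thinning to 2000 UMIs moved it to 13.7 points in T cells and -0.622 in neutrophils, and in neutrophils a cut of 2 UMIs gave -0.772 and stricter marker levels 0.465. The causes were not tested.

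Members called between the arms were 0 in each class by edgeR in the reported fit and 1 in cancer cells by DESeq2 (Ube2c). With each OE-MLKL library left out they ranged from 0 to 1 in dendritic cells and in neutrophils, with Ube2c (-1.81) and Kif23 (-1.16) called without OE-MLKL 3. In the interaction fits the range was 0 to 1 in T cells (Mcm5, 1.41) and 0 to 2 in neutrophils (Mcm7, 1.13, and Gins2, 1.57), again without OE-MLKL 3. Of all genes, edgeR called 1, 1, 1, 3 and 0 between the arms in cancer cells, macrophages, T cells, dendritic cells and neutrophils, against 316, 212, 28, 3 and 236 by DESeq2, 294, 308, 0, 121 and 1311 by edgeR without OE-MLKL 3, 115, 86, 50, 1 and 117 without OE-MLKL 1, 64, 0, 57, 22 and 9 without OE-MLKL 2, and 1, 35, 124, 36 and 73 with no filter on low counts.

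Against macrophages, members called ranged from 16 to 25 in cancer cells and from 23 to 35 in dendritic cells with each library left out, the lowest in both without OE-MLKL 2. The calls that held in all 10 alternatives were 40 of 40 in T cells, 36 of 39 in neutrophils, 15 of 25 in cancer cells and 19 of 35 in dendritic cells, and 0 of these called members changed sign, whereas 7 of the 15 members not called in cancer cells did so in at least 1 alternative. Scaling by library size alone moved the median of all genes by 0.25 in cancer cells, 0.19 in T cells and -0.17 in neutrophils, and turned the split of genes higher and lower in cancer cells from 4758 and 4491 to 6091 and 3544. DESeq2's scaling moved the neutrophil median by 0.13. In the comparison of the arms, library size alone moved the median by 0.12 in cancer cells, 0.10 in macrophages and 0.24 in neutrophils. Dendritic cells, with 44 to 178 cells per library, set the widest intervals.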

Other observations

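Some of the classes outside the 5 above also held cycling cells. Among B cells (Cd79a, Ms4a1) the share was 9.42, 8.11, 6.67 and 12.2% of 138, 37, 30 and 49 cells, above that of macrophages in OE-MLKL 1 and 3 and below it in OE-Vector 1 and OE-MLKL 2. The exact 95% intervals were 5.11 to 15.6, 1.70 to 21.9, 0.818 to 22.1 and 4.63 to 24.8%. Each overlapped the interval of macrophages in the same library. Among NK cells (Ncr1, Klrb1c), set apart from the T cell class, the share was 13.6, 16.7, 8.70 and 0% of 118, 12, 46 and 131 cells. In OE-MLKL 1 this was 2 of 12 cells (exact 95% interval 2.09 to 48.4%). OE-MLKL 3 thus had 0 cycling cells among 131 NK cells, which allows a share of up to 2.29% by the limit of 3 counts of the total (exact 95% upper bound 2.78%), beside 18.7% in the T cells of the same library. Among 20 to 40 endothelial cells per library 0, 0, 2 and 1 were cycling (5 and 4.76% in OE-MLKL 2 and 3), and among 31 to 71 fibroblasts 2, 0, 0 and 2 (6.45 and 3.70% in OE-Vector 1 and OE-MLKL 3). Acinar cells, with 9, 5 and 1 cells in OE-Vector 1 and OE-MLKL 1 and 2, held 0 cycling cells. Cells of no class held 5.76, 3.32, 11.1 and 6.80%, and cells that passed for more than 1 class 5.92, 1.52, 12.8 and 2.76%.

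Single genes of other lists had higher or lower values in cycling cells than in other cells of a class, while the median log2 ratio of the 14 brakes was -0.08 in cancer cells and that of the 12 counted in macrophages 0.19. In cancer cells the antiproliferative factor Btg2 had log2 ratios of cycling over other cells of -0.62, -1.12, -1.0 and -1.04, and in macrophages the inhibitor Cdkn2c had 2.92, 2.09, 2.59 and 3.29. Cdkn2c was thus higher, not lower, in cycling macrophages in 4 of 4 libraries. Cycling T cells held the summed NK markers at 1622, 646, 647 and 1258 CPM, lower than the 3408, 729, 969.6 and 2235 CPM of the other T cells in each library. The summed T cell markers were also lower in cycling T cells in each library, at 5075, 4254, 3751 and 4454 CPM against 6173, 4826, 4997 and 5494. These groups of cells were set by the members, and the differences were not tested.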
